A study of Mus musculus with 8 samples.

Results

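The joint effect of an α-synuclein vector and of α-ketoglutarate (AKG) on gene expression in the mouse substantia nigra was described from all 8 libraries of the study. The members are the 8 libraries and, as features, the 13716 of 54532 deposited genes whose FPKM (fragments per kilobase of gene, relative to library size) averaged 1 or more over them. All mice were male and of the C57BL/6 strain, and the groups had 2 libraries each: wild-type (WT) control, AAV-α-synuclein (the vector group), AKG, and AAV-α-synuclein with AKG (the combined group). Their age, the promoter and serotype of the vector, and the dose of AKG, which the series title places in the diet, are not given in the labels. The labels do not say whether control and AKG mice received an empty vector, or whether the libraries of a group came from separate animals, so p-values measure only the spread between these libraries, which may be technical.

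The substantia nigra holds the midbrain dopamine neurons whose loss causes the movement signs of Parkinson's disease, and aggregates of α-synuclein form in those neurons. AKG is an intermediate of the TCA cycle and a co-substrate of the dioxygenases that demethylate DNA and histones. 2 treatments are additive on a log scale when the second changes a gene by the same factor with or without the first. The interaction measured the departure from that: the vector's log2 difference in mice given AKG (combined minus AKG) minus its log2 difference in mice not given AKG (vector minus control). An interaction above 0 means that the combined group lay above the additive prediction, and one below 0 that it lay below. Each difference is a limma estimate ± its standard error, computed from log2(FPKM + 1), a scale that compresses the differences of genes with low FPKM.

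No gene departed from additivity at an adjusted p under 0.05 by limma with Benjamini-Hochberg adjustment (0 of 13716, 0.0%). This does not show additivity, because in simulated data the same fit recovered only 31.7% of interactions of 1 log2 unit. The smallest adjusted p-values were those of Th (0.276) and Slc6a3 (0.283), genes of dopamine synthesis and reuptake. At an unadjusted p under 0.05 there were 998 genes (7.28%), of which 496 (3.62%) lay above and 502 (3.66%) below the additive prediction. By chance alone, 686 genes would be expected at that threshold. The 998 genes are described below by their values and counts and are not calls.

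Control library 1 (WT1) was the least like the rest. Averaged over the other 7 libraries, its Spearman correlation was 0.926, while each of those 7 averaged 0.971 to 0.975. Recovered totals were 16544190 to 19125423 reads per library and did not set it apart. In library-wise deviations from the gene means, the rank correlation with gene length was -0.52 for control library 1, -0.28 for control library 2 and -0.17 to 0.47 for the 6 libraries of treated mice. Interactions are given with and without control library 1, and other libraries are named where leaving them out moved a value strongly.

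Th and Slc6a3, the pair nearest to a call, are genes of dopamine neurons, and 4 others of this cell type had an unadjusted p under 0.05. Th encodes tyrosine hydroxylase, the rate-limiting enzyme of dopamine synthesis, Ddc the enzyme that completes it, Slc18a2 the transporter that loads dopamine into vesicles, and Slc6a3 the transporter that takes it back up. Chrna6 encodes a nicotinic receptor subunit of these neurons and Slc10a4 a vesicle protein of monoaminergic and cholinergic neurons. The 300 bases around the RefSeq transcription start (250 before, 50 after; GRCm38.p6) are printed for 4 of the 6 genes, because these genes stood together in the interaction. Capitals mark the cyclic AMP response element TGACGTCA in Th and Slc18a2. In Ddc they mark the NR4A response element AAAGGTCA, here on the reverse strand, at the printed start. Ddc has another RefSeq start, and which of these starts was in use in this tissue was not tested.
Th, chr7:142899946-142900245, minus strand: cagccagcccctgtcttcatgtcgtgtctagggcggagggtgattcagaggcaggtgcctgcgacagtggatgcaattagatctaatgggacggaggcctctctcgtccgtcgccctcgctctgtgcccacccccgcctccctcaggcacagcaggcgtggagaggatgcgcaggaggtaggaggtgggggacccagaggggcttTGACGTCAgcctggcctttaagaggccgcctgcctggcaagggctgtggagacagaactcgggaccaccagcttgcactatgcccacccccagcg
Slc18a2, chr19:59260628-59260927, plus strand: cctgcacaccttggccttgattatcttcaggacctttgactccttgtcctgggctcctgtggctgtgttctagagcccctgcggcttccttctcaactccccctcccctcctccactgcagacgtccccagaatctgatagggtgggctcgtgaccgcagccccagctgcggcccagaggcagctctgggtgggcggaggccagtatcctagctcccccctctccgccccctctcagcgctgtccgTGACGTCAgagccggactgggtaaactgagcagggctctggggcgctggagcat
Ddc, chr11:11898095-11898394, minus strand: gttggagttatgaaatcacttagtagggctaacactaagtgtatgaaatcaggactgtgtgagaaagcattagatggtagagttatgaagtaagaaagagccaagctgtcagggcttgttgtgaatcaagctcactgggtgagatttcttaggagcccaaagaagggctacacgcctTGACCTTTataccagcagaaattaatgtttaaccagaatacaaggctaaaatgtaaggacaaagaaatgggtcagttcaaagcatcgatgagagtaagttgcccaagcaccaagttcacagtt
Slc6a3, chr13:73536497-73536796, plus strand: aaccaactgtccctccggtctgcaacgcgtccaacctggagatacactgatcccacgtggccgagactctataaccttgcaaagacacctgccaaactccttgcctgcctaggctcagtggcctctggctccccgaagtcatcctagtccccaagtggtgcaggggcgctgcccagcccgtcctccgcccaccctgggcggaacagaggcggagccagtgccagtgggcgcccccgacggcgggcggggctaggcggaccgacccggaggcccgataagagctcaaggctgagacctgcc

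Both motifs were searched on both strands in the 6 windows of the 5 genes that matched (Chrna6 had no entry, Ddc had 2 starts). The element TGACGTCA begins 45 bases before the start in Th and 4 bases before it in Slc18a2. It was present in 588 of 32851 promoter windows of this length (1.79%). The element AAAGGTCA was present in 495 of them (1.51%), and in the printed Ddc window it begins 73 bases before that window's start site. The other Ddc window held neither string. Neither string was in the windows of Slc6a3 and Slc10a4. A match is a description of the letters only.

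The Th gene (ENSMUSG00000000214) lies on chromosome 7 from 142892752 to 142931128 (GRCm38). Its transcript was at 38.8 FPKM in both control libraries, 12.6 and 16.1 with the vector, 10.7 and 10.4 with AKG, and 14.6 and 16.6 with both. Control stood above all other libraries, and the combined group overlapped the vector group. Th was thus lower with each agent alone, by 1.38 ± 0.13 with the vector (adjusted p = 0.229 by limma) and by 1.79 ± 0.13 with AKG (adjusted p = 0.0414 by limma), the second being a call. That call held without control library 2, a fit that takes its spread from the other groups, and was lost without any other library. Over these fits the difference stayed between -1.81 and -1.77. With all libraries the call was also lost without the mean-variance trend (adjusted p = 0.0575 by limma), with library weights (0.347) and with a trend in gene length removed (0.0675). Additivity of these differences would put the combined group at 3.42 FPKM, and on a linear scale at -13.9 FPKM, a level that cannot occur. The interaction was 1.90 ± 0.19 (unadjusted p = 2.0e-05) and was 1.90 without control library 1. Without control library 2 it was also 1.90, in a fit that holds no spread between control libraries.

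Slc6a3 (ENSMUSG00000021609, chromosome 13, 73536747 to 73578672) had the highest interaction of the named dopamine genes. Its values were 24.1 and 28.5 FPKM in control, 1.43 and 3.87 with the vector, 0.801 and 0.615 with AKG, and 4.99 and 11.9 with both. The combined libraries lay above all 4 libraries given 1 agent and below both control libraries. The interaction was 5.35 ± 0.59, and 5.47 without control library 1. The additive prediction was -2.22 on the log2(FPKM + 1) scale, below the 0 that an absent transcript has. So for this gene the log-additive expectation could not have been met by any level. Predictions were below 0 in 37 of the 13716 genes, Slc10a4 and Chrna6 among them. For such genes every possible level lies above additivity.

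Ddc (chromosome 11, 11814101 to 11898144) was at 23.1 and 16.7 FPKM in control, 9.74 and 10.6 with the vector, 8.81 and 6.91 with AKG, and 11.5 in both combined libraries. Its interaction was 1.40 ± 0.24, and 1.18 without control library 1. Slc10a4 (chromosome 5, 73006883 to 73012955) was at 5.51 and 6.66 FPKM in control, 1.41 and 1.96 with the vector, 1.06 and 0.981 with AKG, and 1.86 and 4.86 with both. In Slc10a4 combined library 2 was far above combined library 1, which lay within the vector group's range. The interaction of Slc10a4 was 2.42 ± 0.44, and 2.54 without control library 1.

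Slc18a2 (chromosome 19, 59260878 to 59296012) differed less between groups, with 10.8 and 11.3 FPKM in control, 7.28 and 8.30 with the vector, 5.74 and 4.41 with AKG, and 7.40 and 6.35 with both. Its interaction was 0.84 ± 0.20, and 0.87 without control library 1. Chrna6, named after its values were seen, was at 3.60 and 4.85 FPKM in control, 1.12 and 1.76 with the vector, 0.766 and 1.58 with AKG, and 1.47 and 2.21 with both. Its interaction was 1.50 ± 0.35, and 1.67 without control library 1. In all 6 genes both control libraries were above every other library. Over all genes tested, they were above all single-agent libraries, a looser condition that leaves out the combined libraries, in 19.4%. In Slc6a3 and Ddc both combined libraries were above the 4 libraries given 1 agent (4.72% of all genes tested), and in the other 4 genes they overlapped them. These genes were picked by their interaction, which a high control raises, so the place of control is not a separate result.

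**Figure D1:**
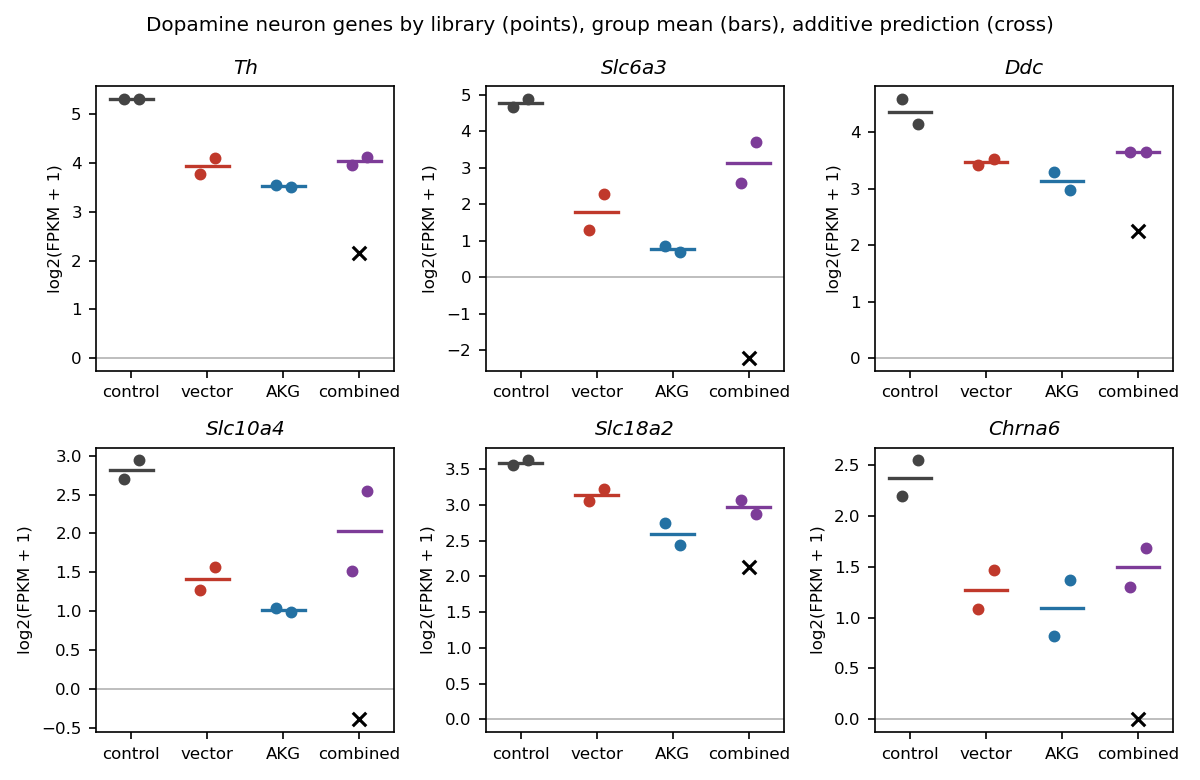
Levels of dopamine neuron genes on the log2(FPKM + 1) scale by group, with 1 point per library, the group mean as a bar and the log-additive prediction for the combined group as a cross. In each gene the control libraries are highest and the combined libraries lie above the cross. The prediction for Slc6a3 is -2.22, and those for Slc10a4 and Chrna6 are also below 0.

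Of 25 listed dopamine neuron genes, 18 were tested, 14 had an interaction above 0, 6 reached an unadjusted p under 0.05 above additivity (3.62% of all genes tested) and 0 below it. The 6 are the genes described above, and all 6 kept an unadjusted p under 0.05 in each of the 8 fits without 1 library (0.933% of all genes tested). In Slc6a3, Slc10a4 and Chrna6 the sign above additivity was fixed by a prediction below 0. The list's median was 0.47, against 0.01 over all genes. It was 0.59 with control library 1 left out, 0.55 with control library 2 left out and 0.30 with AKG library 1 left out. Genes of the same list with values near 0 were Ret, the receptor of the neurotrophic factor GDNF (-0.01), Calb1, the calcium buffer calbindin (-0.04), the release protein gene Cplx1 (-0.03) and the transcription factor gene Nr4a2 (-0.09). Fewer dopamine neurons and less RNA per neuron cannot be told apart in these bulk samples. Markers of thalamic and other midbrain excitatory neurons, which lie around these neurons, summed to 583 and 680 FPKM in control, 703 and 650 with the vector, 685 and 798 with AKG, and 635 and 679 with both. All 14 of them were tested, and 0 was absent from any group. Their median interaction was -0.56, or -0.32 without control library 1 and -0.95 with that library as the only control, and their part in the result was not tested. Forebrain excitatory neuron markers, 9 of 15 of them tested and 0 absent from any group, summed to 151 and 189 FPKM in control, 216 and 234 with the vector, 212 and 259 with AKG, and 269 and 229 with both, and their part was not tested either. Their median interaction was -0.53, or -0.36 without control library 1, -0.31 without AKG library 2 and -0.32 without combined library 2.

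The filter on low values removed 7 of the 25. Among them Gch1, which makes the cofactor of tyrosine hydroxylase, was at 2.88 and 1.16 FPKM in control and 0.434 to 0.716 in the other libraries. Pitx3, a transcription factor gene that dopamine neurons need to survive, was at 1.15 and 1.07 FPKM in control and 0.0710 to 0.550 elsewhere. En1, Foxa2 and Aldh1a7 likewise had both control libraries above the other 6, in Gucy2c control overlapped the vector group, and in Lmx1b it overlapped all groups. All 7 were at levels too low for the test. Sncg, the γ-synuclein gene that dopamine neurons express, had an interaction of 0.85 ± 0.37, which was 0.50 without control library 1.

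The interaction is the sum of a pair of distances from the mean of both single-agent groups: that of the combined group and that of control. A gene at which both agents alone gave the same shift from control, and the combination gave no more than either, has its whole interaction in the control distance. The control distance was larger than the combined distance in 10911 of 13716 genes (79.5%). Its median size was 0.20, against 0.06 for the combined distance. Among the 998 genes it was the larger in 936 and the smaller in 62, and it made up a median of 79.1% of the interaction. In Th the control distance was 1.59 (83.3% of the interaction) and the combined distance 0.32. In Slc6a3 they were 3.49 (65.2%) and 1.86.

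Tested by itself, the control distance gave 1 call, Th (adjusted p = 0.0351 by limma; 0.00729% of genes), and 3300 genes at an unadjusted p under 0.05 (24.1%), 1457 higher (10.6%) and 1843 lower (13.4%). The call of Th was lost without any library but control library 2, with limma adjusted p-values of 0.0695 to 0.346 and differences of 1.50 to 1.67. It was also lost with library weights (limma adjusted p = 0.383) and the length trend removed (0.0755). Without control library 1 the control distance had 0 calls, and without control library 2 it had 4213. Both control libraries lay above all 4 single-agent libraries in 2657 genes (19.4%) and below them in 2663 (19.4%). The estimate of the combined distance uses no control library, but its standard error pools the spread of all 4 groups, control included. That distance gave 0 calls and 175 genes at an unadjusted p under 0.05 (1.28%), 113 higher (0.824%) and 62 lower (0.452%). Both combined libraries lay above all 4 single-agent libraries in 647 genes (4.72%) and below them in 549 (4.0%).

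**Figure D2:**
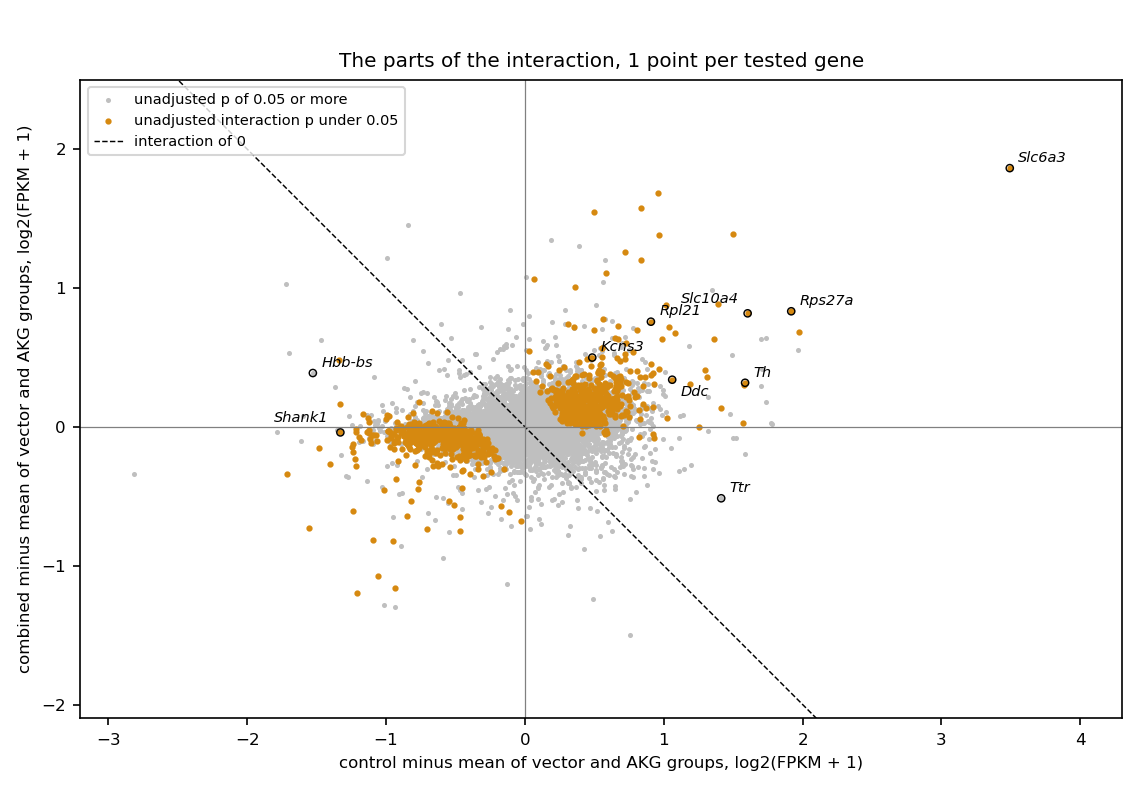
Control distance (x axis) and combined distance (y axis) from the mean of the vector and AKG groups, both as log2(FPKM + 1) differences, 1 point per tested gene; the dashed line marks an interaction of 0. The 998 genes at an unadjusted p under 0.05 spread along the x axis, 936 of them with the larger distance on that axis, and Slc6a3 is far along both.

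Control library 1 supplied the largest piece. Split by library, its median contribution to the interaction was 0.15 in size, against 0.06 for control library 2, 0.04 for combined library 1 and 0.06 for combined library 2. Among the 998 genes it made up a median of 52.9% of the interaction, and over 50% of it in 562 genes. Its share was 41.7% in Th and 31.5% in Slc6a3, but 68.4% in Shank1, a scaffold gene of excitatory synapses, and 67.0% in Cit, which encodes the citron kinase.

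Without control library 1 there were 0 calls and 651 genes at an unadjusted p under 0.05 (4.75%), 316 above (2.3%) and 335 below additivity (2.44%). Of these, 457 were among the 998 with the same sign, which is 45.8% of the 998 and 70.2% of the 651, and none of the 998 changed sign. The median interaction of the 998, in size, went from 0.66 to 0.47. Both fits share the other libraries and the 998 were picked in the first. Shared genes and kept signs thus follow largely from that choice, and part of the fall may too. No sign among the 998 changed without control library 2 either. With control library 1 as the only control, by contrast, 1369 genes were called (9.98%) and 4564 had an unadjusted p under 0.05 (33.3%), 1966 above (14.3%) and 2598 below additivity (18.9%). Those 4564 held 935 of the 998. So the calls depended on which control library was kept, and there were 0 with both. A fit with a single control library takes its spread from the other groups. Its calls therefore do not measure the spread between control libraries.

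Other libraries also moved the count. At an unadjusted p under 0.05 there were 516 genes without vector library 1, 327 without vector library 2, 296 without AKG library 1, 743 without AKG library 2, 1598 without combined library 1 and 286 without combined library 2. Each of these fits lends the group with a single library the spread of the other groups. Genes with an unadjusted p under 0.05 and the same sign with all libraries and in each of these 8 fits numbered 128 (0.933%), 75 of them above (0.547%) and 53 below the additive prediction.

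**Figure D3:**
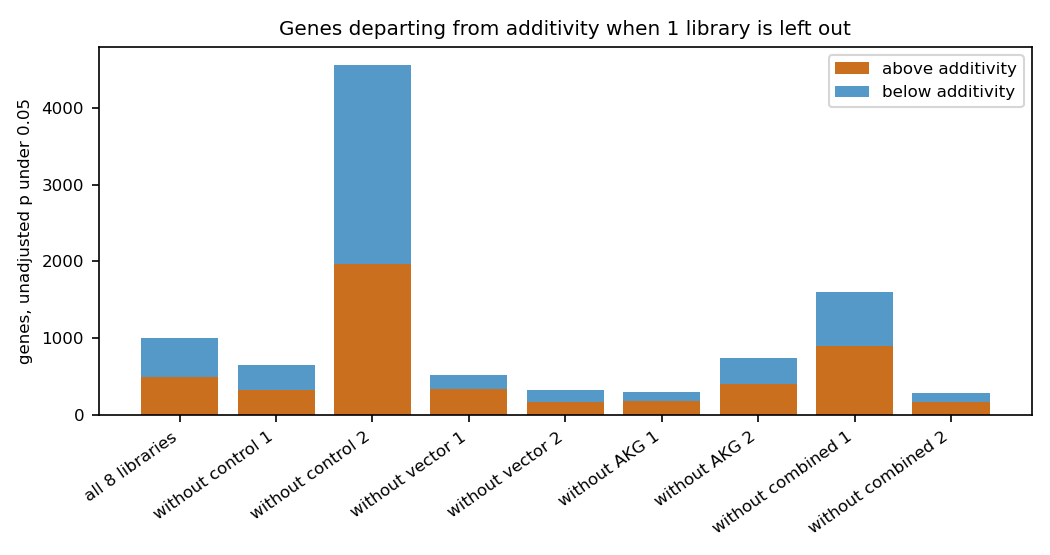
Number of genes with an unadjusted interaction p under 0.05 (y axis) with all 8 libraries and without each library in turn, split into genes above and below the additive prediction. The bar without control library 2 reaches 4564 and that without control library 1 651, against 998 with all libraries.

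Beside the dopamine genes, the steadiest genes above additivity are described next. They were picked by their p over the fits without 1 library, a choice that favours small spreads between libraries. Hmgn2, a nucleosome-binding protein gene, was at 16.7 and 16.3 FPKM in control, 12.3 and 12.01 with the vector, 12.1 and 11.4 with AKG, and 14.5 and 13.9 with both. No groups but those of the single agents overlapped, and the combined group lay between these and control. Its interaction was 0.66 ± 0.13, and 0.64 without control library 1. Polr2j, an RNA polymerase II subunit gene, had 0.67 ± 0.14 and 0.65. Rpa3, a subunit gene of the single-strand DNA binding complex RPA, had 0.71 ± 0.15 and 0.80. Kcns3, a modulatory potassium channel subunit gene, was at 2.24 and 2.53 FPKM in control, 1.70 and 1.40 with the vector, 1.30 and 1.29 with AKG, and 2.10 and 2.76 with both. Its combined libraries overlapped control and lay above every single-agent library, with an interaction of 0.98 ± 0.20, and 1.05 without control library 1. None of these genes was called; their adjusted p is 0.537 by limma.

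Below additivity, Sesn2, a stress-induced inhibitor of mTORC1, was at 4.05 and 4.29 FPKM in control, 5.69 and 5.54 with the vector, 6.04 and 5.86 with AKG, and 4.95 and 4.86 with both. Again only the single-agent groups stood near each other, and the combined group lay between them and control. Its interaction was -0.59 ± 0.13, and -0.56 without control library 1. Itpr1, the gene of an IP3 receptor calcium channel, was at 5.46 and 7.42 FPKM in control and at 10.9 to 12.7 in the other 6 libraries, with an interaction of -0.78 ± 0.19 that was -0.59 without control library 1. In Itpr1 the combined group did not leave the range of the single-agent groups, and its combined distance was 0.01. Kdm6b, an AKG-dependent histone demethylase gene, had -0.74 ± 0.19, and -0.61 without control library 1. The mitochondrial serine tRNA gene mt-Ts2 had -0.93 ± 0.19 and -0.95, in libraries made for mRNA.

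Gene groups behaved unevenly when control library 1 was left out. Of 44 lists, 30 had a median interaction above 0. Without that library 33 medians were smaller in size and 9 changed sign. The share of all tested genes above 0 was 50.8%, and 52.1% without control library 1. Counts of list members at an unadjusted p under 0.05 stand against 3.62% of all genes above and 3.66% below additivity, and against 2.3% and 2.44% without control library 1.

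Genes of cytosolic ribosomal proteins lay above additivity in 76 of 79 cases, with 21 at an unadjusted p under 0.05 (3.62% of all genes) and a median of 0.75. Without control library 1 there were 4, and 1 below additivity. The median became 0.42 when control library 1 was left out and 1.05 when control library 2 was. Nuclear-encoded respiratory chain genes lay above it in 83 of 84 cases, with 6 at an unadjusted p under 0.05 (3.62% of all genes), or 2 without control library 1. Their median was 0.53, or 0.37 without control library 1 and 0.32 without combined library 2. Rps27a, a fusion gene of ubiquitin and a small-subunit protein, was at 166.9 and 172.7 FPKM in control, 47.9 and 40.03 with the vector, 37.5 and 52.9 with AKG, and 44.8 and 140.3 with both. Combined library 1 stood among the single-agent libraries and combined library 2 near control, and the interaction was 2.75 ± 0.66, or 2.77 without control library 1. Rpl21 had 1.66 ± 0.41, and 1.23 without control library 1. Both have near-identical processed pseudogenes, so their reads may be split by the counting. With a trend in gene length removed from each library, the ribosomal median was 0.52 and the respiratory chain median 0.28.

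The combined group itself was divided on these lists. The combined distance was above 0 in 74 of 79 ribosomal protein genes and 80 of 84 respiratory chain genes (50.6% of all genes). Without combined library 2 the counts were 17 and 15, and without combined library 1 they were 76 and 83. The mitochondrial genome's 13 genes had a median interaction of 0.11, or -0.04 without control library 1, and it ranged from -0.06 to 0.29 over the fits without 1 library. Among them mt-Co2, a cytochrome c oxidase subunit, was at 296 and 313 FPKM in control, 226 and 160 with the vector, 175 and 224 with AKG, and 254 and 359 with both, an interaction of 1.28 ± 0.33, or 1.33 without control library 1. It stood above the single-agent libraries in both combined libraries.

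Synaptic genes lay on the other side. Postsynaptic genes were below additivity in 33 of 34 cases, 8 of them at an unadjusted p under 0.05 (3.66% of all genes in that direction), with a median of -0.53. It became -0.26 when control library 1 was left out, again with 8 genes at an unadjusted p under 0.05, and -0.81 when control library 2 was. Presynaptic genes had a median of -0.51, or -0.18 without control library 1 and -0.85 without the other control. For voltage-gated channel genes these medians were -0.72, -0.34 and -1.21. Shank1 was at 4.63 and 11.0 FPKM in control, 19.3 and 17.4 with the vector, 21.4 and 20.6 with AKG, and 20.9 and 17.4 with both. Control was lowest, with control library 1 far below control library 2. The combined group overlapped both the vector and the AKG group, which did not overlap each other. The interaction of Shank1 was -1.37 ± 0.44, and -0.83 without control library 1. Shank2, a scaffold gene of the same family, had -0.93 and -0.64. With the length trend removed, the medians were -0.27 for postsynaptic, -0.28 for presynaptic and -0.52 for channel genes. Across all 13716 genes the interaction had a Spearman correlation with gene length of -0.54, and of -0.42 without control library 1. Genes are not independent replicates.

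Genes of microglia and of the complement system, which tags synapses and debris for removal, lay mostly above additivity. In the complement list 6 of 7 tested genes did, 4 at an unadjusted p under 0.05 (3.62% of all genes), or 1 without control library 1. The median was 0.87, or 0.63 without that library. C4b was at 11.96 and 8.88 FPKM in control, 6.80 and 7.14 with the vector, 7.14 and 6.59 with AKG, and 8.40 and 9.61 with both. Its combined libraries lay above the single-agent libraries and overlapped control, and the interaction was 0.85 ± 0.21, or 0.66 without control library 1. C1qa had 0.88 ± 0.31 and 0.63. Cd68, a lysosomal membrane protein of phagocytes, was at 6.42 and 6.23 FPKM in control, 4.14 and 4.87 with the vector, 4.49 and 4.27 with AKG, and 4.91 and 6.67 with both. Its interaction was 0.74 ± 0.21, or 0.72 without control library 1. Disease-associated microglia genes lay above additivity in 16 of 16 cases (1 at an unadjusted p under 0.05), with a median of 0.53, or 0.33 without control library 1 and 0.31 without combined library 2. Homeostatic microglia genes had a median of 0.28, or 0.29 without control library 1 and 0.17 without combined library 2. By limma 0 of these 16 had an unadjusted p under 0.05, or 1 without control library 1. Aif1, a microglial marker, had 0.38 ± 0.30, and 0.15 to 0.62 over the fits without 1 library (0.20 without control library 1).

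Reactive astrocyte genes moved when control library 1 was left out. Gfap, the astrocyte intermediate filament gene, was at 156.7 and 75.7 FPKM in control, 45.3 and 44.2 with the vector, 39.8 and 45.7 with AKG, and 51.1 and 66.3 with both. Its interaction was 1.71 ± 0.44, and 1.19 without control library 1. The list's median was 0.42 with all libraries and 0.06 without control library 1. For MHC class II genes the medians were 0.71 and 0.13, and up to 1.49 with control library 1 as the only control.

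**Figure D4:**
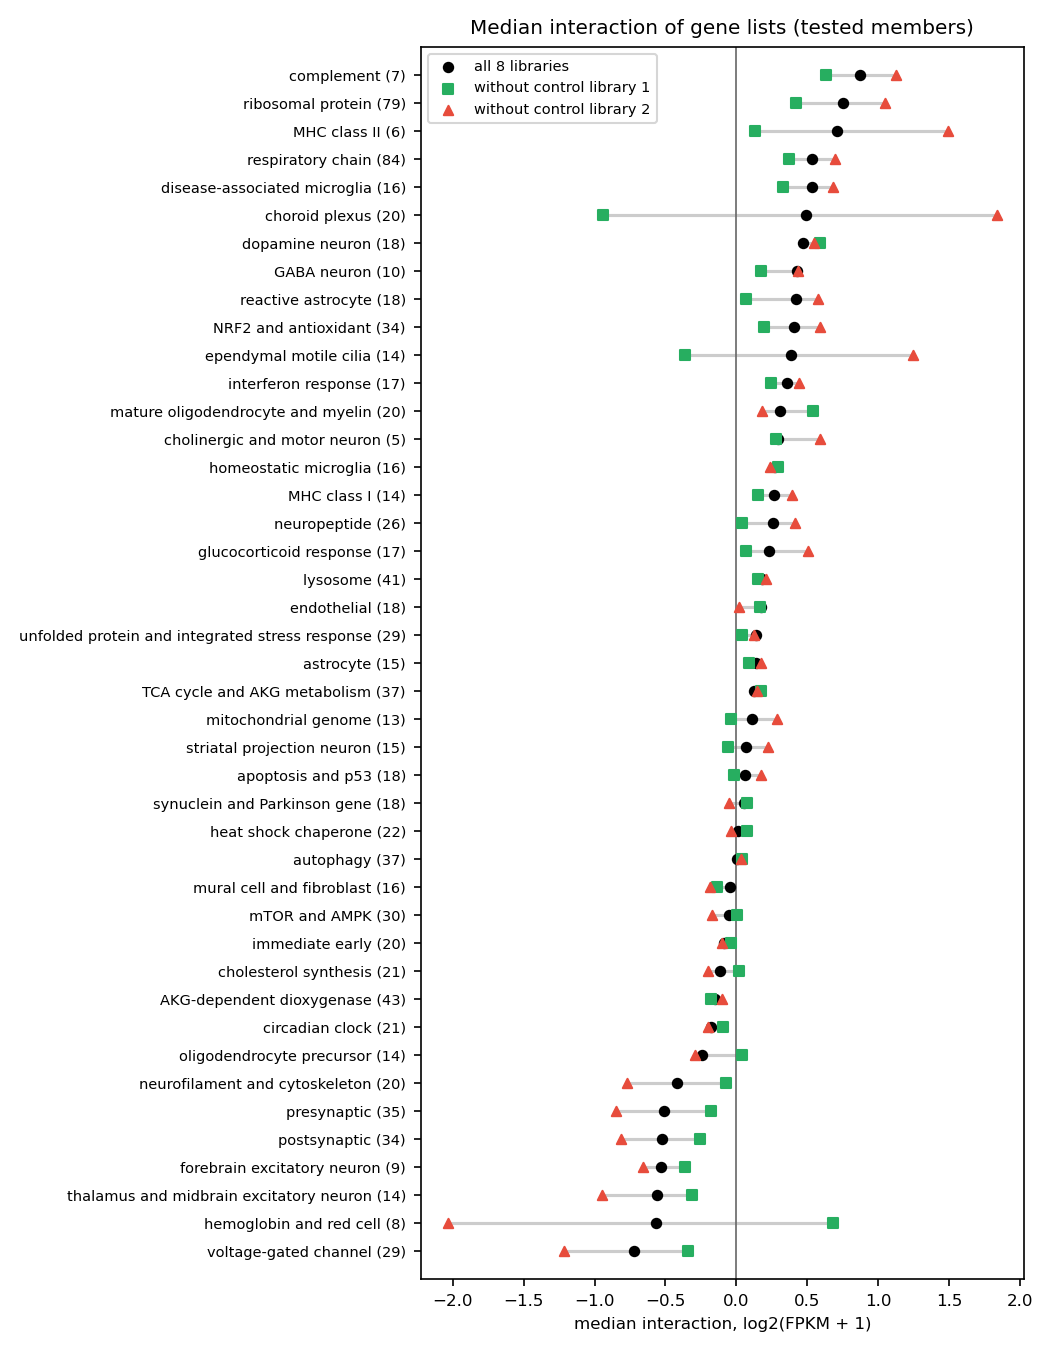
Median interaction (x axis, log2 scale) of the tested genes of each list with 5 or more of them, with all libraries and with either control library left out. The ribosomal median goes from 0.75 to 0.42 and the choroid plexus median from 0.49 to -0.94 when control library 1 is left out, and the dopamine neuron median from 0.47 to 0.59.

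Genes of the TCA cycle and of AKG metabolism had small interactions. In this list 28 of 37 tested genes lay above additivity with a median of 0.12 (0.17 without control library 1 and 0.24 without combined library 1). Of these, 3 had an unadjusted p under 0.05 (3.62% of all genes), or 2 without control library 1. The 3 were Slc25a10, the mitochondrial dicarboxylate carrier (0.56 ± 0.14, or 0.53 without control library 1), Gpt and Psat1. Gpt, an alanine aminotransferase that uses or makes AKG, had 0.46 ± 0.16, or 0.54 without control library 1. Psat1, a serine synthesis enzyme that makes AKG, had 0.49, or 0.42. Ogdh, the AKG dehydrogenase subunit, was at 40.6 and 53.7 FPKM in control, 56.6 and 57.9 with the vector, 58.1 and 56.0 with AKG, and 55.4 and 55.6 with both. Control library 1 was lowest, and the interaction was -0.33 ± 0.20, or -0.13 without it and -0.52 without control library 2. Idh1 had 0.07 ± 0.15, and -0.02 without control library 1.

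AKG-dependent dioxygenase genes had 13 of 43 above additivity and 5 below it at an unadjusted p under 0.05 (3.66% of all genes), or 2 without control library 1. Their median was -0.15, or -0.18 without that library, and 0.02 with the length trend removed. Kdm6b was the gene among them with the smallest p. Genes of mTOR and AMPK signalling had a median of -0.05, or 0.01 without control library 1 and -0.17 without control library 2. In that list 6 of 30 were below additivity at an unadjusted p under 0.05 (3.66% of all genes), or 2 without control library 1. Mtor had -0.62 ± 0.26, or -0.36 without control library 1, and Ulk1, the kinase that starts autophagy, -0.60 ± 0.23, or -0.43. For autophagy genes the median was 0.01, or 0.04 without control library 1, and Sqstm1, the autophagy receptor p62, had 0.31 ± 0.16, or 0.29. Genes of the antioxidant NRF2 programme had a median of 0.41, or 0.20 without control library 1 and 0.26 without combined library 2. Above additivity 3 of 34 had an unadjusted p under 0.05 by limma (3.62% of all genes), or 0 without control library 1.

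Choroid plexus and red cell genes gave interactions that turned with single libraries. Ttr, the choroid plexus gene of transthyretin, was at 8778 and 435 FPKM in control, 44.0 and 1959 with the vector, 1334 and 2466 with AKG, and 53.4 and 4857 with both. In every group but AKG, 1 library was far above the other. The interaction of Ttr was 0.90 ± 3.62, and -2.34 to 4.14 over the fits without 1 library (-1.27 without control library 1). Of 20 tested choroid plexus genes 18 were above additivity with all libraries and 0 without control library 1. Their median of 0.49 turned to -0.94 without control library 1, -0.44 without vector library 1 and -0.94 without combined library 2. For Hbb-bs, a hemoglobin gene of red cells, control had 5.53 and 212 FPKM and the 6 libraries of treated mice 85.2 to 176, with an interaction of -1.14 ± 1.95 that became 1.38 when control library 1 was left out and -3.66 when control library 2 was.

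**Figure D5:**
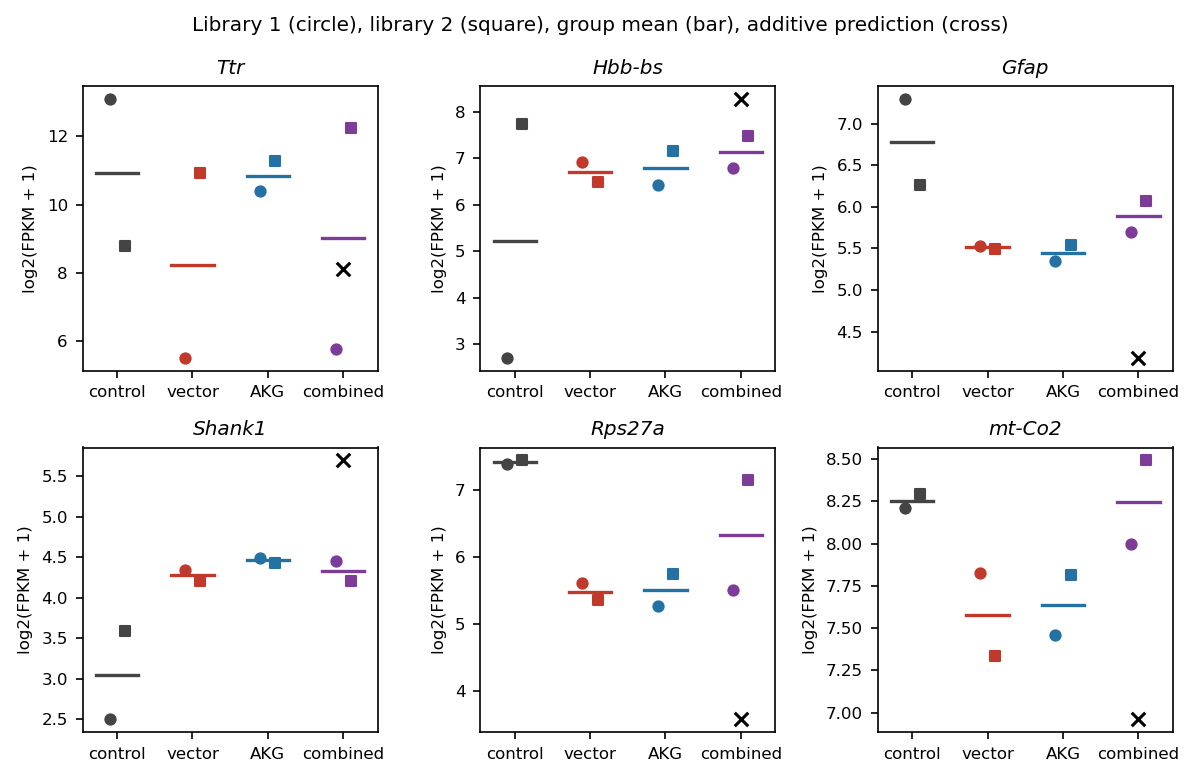
Levels of 6 genes on the log2(FPKM + 1) scale by group, with 1 point per library, the group mean as a bar and the log-additive prediction for the combined group as a cross. In Ttr and Hbb-bs the control libraries lie far apart, in Gfap and Shank1 they differ less, and in Rps27a and mt-Co2 they agree while the combined libraries differ.

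By rule, genes with the smallest p of the combined distance were also named. That distance had 0 calls by limma. Its 175 genes at an unadjusted p under 0.05 (1.28%) are fewer than the 686 expected by chance. The pooled spread includes that between the control libraries, which had the lowest library weights (0.36, against 0.90 to 1.82 elsewhere). The shortfall therefore does not show that the combined group departed less than by chance. With 0 calls, the values below describe genes picked for that distance and are not evidence of a departure. Hpca, the gene of the calcium sensor hippocalcin, was at 51.8 and 57.4 FPKM in control, 48.3 and 56.8 with the vector, 43.7 and 48.2 with AKG, and 70.3 and 64.5 with both. The combined group was above all other libraries. Its combined distance was 0.45 ± 0.11 (unadjusted p = 0.00481, adjusted p = 0.9999 by limma) and the control distance was 25.0% of the interaction of 0.60. Ly6c1 and Ly6a, surface protein genes of brain endothelium, had combined distances of 0.44 ± 0.15 and 0.41 ± 0.13. Of 18 endothelial genes, 4 had a combined distance above 0 at an unadjusted p under 0.05 (0.824% of all genes), and 15 lay above 0, or 12 without combined library 2. C1ql4, a synaptic organizer gene, was at 1.90 and 1.48 FPKM in control, 1.32 and 2.20 with the vector, 1.73 and 1.76 with AKG, and 0.733 and 0.683 with both. Its combined libraries were the lowest of the 8, with a combined distance of -0.68 ± 0.16.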

How the data were processed

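RNA-seq values of 8 substantia nigra libraries in 4 groups of 2 were used. The authors deposited FPKM per gene with gene lengths and GRCm38 coordinates, per the file headers, and the submitters' processing notes name GRCm38 and mm10. The aligner and counter (not given in the sources used here) may have used strand or not. Multiplied by gene length, 100% of the deposited values were whole multiples of 1 read (tolerance 0.01), which gave the library totals and the reads for voom.

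Genes averaging at least 1 FPKM (13716, of which 12326 protein-coding) were fitted as log2(FPKM + 1) in R 4.3.3 by limma 3.58.1, using a mean for each group (lmFit) and eBayes with a trend, two-sided, Benjamini-Hochberg over these genes, threshold 0.05. The residual degrees of freedom were 4 and their median prior was 2.98. The fit was tested on 10 simulated data sets with normal noise and the residual spread of the real genes. At an adjusted p under 0.05 it recovered 31.7% of planted interactions of 1 log2 unit and 81% of those of 2. False calls averaged 6.6. The contrasts were the interaction, its control and combined distances, and 4 single differences.

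The members, the 44 gene lists and the tests were chosen with earlier results of these data known. Named genes were the 12 with the smallest p per direction, 8 per direction without control library 1 and for the combined distance, the 12 most stable without each library, up to 3 per list and a fixed set; unnamed models and pseudogenes were passed over. Part of them is printed. Promoter windows came from RefSeq. Other settings, among them leaving out each library, are in the closing section. Figures used matplotlib 3.10.9, and tables pandas 2.3.3 and numpy 2.4.6 under Python 3.11.15.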

Additional observations from a re-analysis of the deposited data

How the results depend on the processing

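The interaction gave 0 calls in every setting tried except without control library 2, so without each library in turn the count was 0 to 1369. At an unadjusted p under 0.05 the 998 genes became 1700 with no filter on low values, 602 with a minimum of 5 FPKM, 529 without control library 1 and combined library 2 (a setting chosen after seeing the data), and 286 to 4564 without 1 library. Voom on recovered reads gave 430 above and 656 below additivity, and library weights 486 and 712, against 496 and 502.

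The combined distance gave 5 calls with no filter and 0 otherwise. Its 175 genes at an unadjusted p under 0.05 became 821 with no filter, 66 with a minimum of 5 FPKM, 113 with voom, 96 among protein-coding genes, 397 without the pair of libraries, and 138 to 374 without 1 library. The control distance gave 2 calls with a pseudocount of 0.1, 5 with no filter, and 0 with library weights, with a length trend removed, or without the pair of libraries. Without 1 library it gave 0 calls without control library 1 and up to 4213 without control library 2. Its 3300 genes at an unadjusted p under 0.05 became 1772 with library weights, 1568 without the pair, and 1005 to 6144 without 1 library.

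The replicate numbers did not pair the libraries: deviations of same-numbered libraries correlated at -0.32 to 0.34 between groups. With the replicate number as a block, the interaction had 577 genes at an unadjusted p under 0.05 and the control distance 0 calls. In that fit Th had a limma adjusted p of 0.0885 for the control distance and of 0.0931 for AKG against control.

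Of 1142 settings over 55 genes, 8 reversed the interaction. Ttr went to -4.51 without the pair of libraries and ranged from -2.34 to 4.14 without 1 library. Hbb-bs went to 1.04 and ranged from -3.66 to 1.38. Idh1 went to -0.077 with the length trend removed and ranged from -0.017 to 0.15. Of the settings, 31 made a gene pass the threshold, each of them without control library 2. Over 43 lists, 146 settings moved a median by more than the spread between libraries. For each of these changes the cause was not tested. The 2 count models listed as alternatives were not run because the deposited unit is FPKM.

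Depth limits low genes: for a 1 kb gene, each read added 0.0515 to 0.0590 FPKM to its value.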
